A study of Mus musculus with 4 samples.

Results

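The transcripts described here encode 10 proteins of microRNA silencing and processing: the Argonautes Ago1, Ago2, Ago3 and Ago4, the TNRC6 scaffolds Tnrc6a, Tnrc6b and Tnrc6c, the nucleases Dicer1 and Drosha, and the Drosha partner Dgcr8. They were taken by gene name from a deposited table of 53379 genes, and all 10 were found. RNA that came down with an antibody against Cpeb4 was compared with RNA that came down with control IgG, from lysates of V-SVZ, the ventricular-subventricular zone beside the lateral ventricles, where neurons are still made after birth. All 4 libraries came from wild-type (WT) CD1 mice at P7/P8, that is, at postnatal day 7 or 8. The experiment was done 2 times, and each time gave 1 Cpeb4 and 1 IgG library, so n = 2 per antibody. The labels do not say whether the experiments used separate or pooled animals, so the spread between these libraries may be technical only. The spread behind each limma p-value is taken mostly from all tested genes. In the main fit a gene's own replicates gave 1 degree of freedom and the prior over genes 14.6.

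MicroRNAs are made from hairpins in longer transcripts. Drosha and its RNA-binding partner Dgcr8 together form Microprocessor, which cuts the hairpin out in the nucleus. Dicer1 then trims it in the cytoplasm to a short duplex, and 1 strand is loaded into an Argonaute, which pairs with target mRNAs mainly through the seed near the 5′ end of the microRNA. TNRC6 proteins, also called GW182 proteins, bind Argonaute and recruit the deadenylases that shorten the poly(A) tail of the target. Cpeb4, a cytoplasmic polyadenylation element-binding protein, also acts on poly(A) tails and translation. What was measured here is the mRNA of each of these proteins in the precipitates, not the proteins and not the microRNAs.

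The Dgcr8 mRNA is itself known as a Microprocessor substrate, because hairpins in it can be cut. RefSeq places 2 annotated hairpins with 4 mature arms inside the span of Dgcr8 (GRCm38, chromosome 16, minus strand). The hairpin of miR-1306 is shown first because it shows what Drosha and Dgcr8 cut, with its mature arms in capitals, 5′ to 3′ (chr16:18284239-18284317).
Mir1306 hairpin: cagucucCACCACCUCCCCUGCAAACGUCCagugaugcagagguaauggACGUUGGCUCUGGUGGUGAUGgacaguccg
The 4 mature arms of the Dgcr8 hairpins follow, with the seed (bases 2 to 8) in capitals.
miR-1306-5p: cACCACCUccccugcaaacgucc
miR-1306-3p: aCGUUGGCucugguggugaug
miR-3618-5p: uGUGAUUUccaauaauugaggc
miR-3618-3p: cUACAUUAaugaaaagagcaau
The host transcripts Mir22hg and Mir9-3hg, described with the pathway genes, hold miR-22 (chr11:75463716-75463810, plus strand) and miR-9 (chr7:79505264-79505353, plus strand) within their RefSeq spans. Their mature arms are shown with the seed in capitals, since the host transcripts were among those measured. Whether the arms were made from them in this tissue was not tested.
miR-22-5p: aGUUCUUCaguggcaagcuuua
miR-22-3p: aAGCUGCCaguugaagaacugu
miR-9-5p: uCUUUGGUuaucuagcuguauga
miR-9-3p: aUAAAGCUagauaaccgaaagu
These 8 mature sequences had 8 different seeds. The rows of the deposited table for the 2 hairpins within Dgcr8 and for Mir5113, a hairpin within Tnrc6b, were listed at 0 in all 4 libraries, and mature microRNAs were not measured.

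Libraries held 35037171 and 24483742 reads on genes for Cpeb4, and 24094241 and 22486721 for IgG. The levels are FPKM, fragments per kilobase of gene with the authors' correction for depth, and can therefore be compared between genes. Each member drew between 797 and 4326 reads per library. Every marker checked for the cell classes of this tissue was above 0 in at least 1 library. The summed level of the 5 neuroblast markers was 367 and 355 FPKM in the Cpeb4 libraries, against 274 and 274 FPKM in the IgG libraries. Of these 5, 3 were called higher. All marker calls here use the authors' scaling, with which 38.8% of tested genes were higher and 11.6% lower. With libraries scaled to their read totals these shares were 17.6% and 41.5%. The 4 neural stem cell markers summed to 630.0 and 656 FPKM with Cpeb4 and 374 and 363 FPKM with IgG, with 2 higher and 1 lower. The 3 oligodendrocyte lineage markers, all higher, summed to 204 and 223 FPKM with Cpeb4 and 140 and 134 FPKM with IgG. The 3 ependymal markers, with 2 lower, summed to 45.2 and 38.3 FPKM with Cpeb4 and 53.3 and 54.8 FPKM with IgG. The 3 markers of choroid plexus and blood, with 2 lower, summed to 146 and 139 FPKM with Cpeb4 and 175 and 159 FPKM with IgG. Among the other classes, 2 of 3 transit amplifying markers were higher and 1 lower, 1 of 4 microglial markers higher and 1 lower, 1 of 3 striatal neuron markers higher, and no endothelial marker was called. The part of such differences in the results was not tested. They compare RNA that came down with each antibody in bulk, and measure neither the number of cells of a type nor the RNA per cell. The mRNA of the antibody's target, Cpeb4, was at 26.7 and 38.3 FPKM in the Cpeb4 libraries, against 9.04 and 9.66 FPKM in the IgG libraries.

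All 4 Argonaute mRNAs were higher in the Cpeb4 precipitates with the authors' scaling, although the sign of Ago4 turned with read totals. None of the 3 TNRC6 mRNAs was called, and neither was Dicer1 or Drosha. The 4 differences were between 0.42 and 0.76 on the log2(FPKM + 1) scale. Dgcr8 was the other member called higher, and 0 members were called lower by limma. Of the 10 members, all of which passed the filter on low values, 5 were thus called higher, beside 38.8% of the 15745 tested genes, and 0 were called lower, beside 11.6%. At an unadjusted p under 0.05 the counts by limma were the same 5 and 0, beside 42.1% of genes higher and 13.8% lower. With limma-voom on recovered reads they were also 5 and 0, beside 40.6% and 12.1%. Without the IgG library of experiment 1 limma called 2 members higher, beside 26.5% of genes, and without that of experiment 2 it called 3, beside 25.3%. The median log2 fold change was 0.20 for the members and 0.19 for all tested genes. As a set of 10, the members' count lay near the background. Lists of 3 or 4 genes are given here by role as a description, and no difference between them was tested.

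Ago2, the Argonaute that can cleave a fully paired target, was at 10.3 and 10.4 FPKM in the Cpeb4 libraries, against 5.95 and 6.63 FPKM in the IgG libraries. Both Cpeb4 libraries lay above both IgG libraries, a separation found for 53.2% of tested genes. The log2 fold change was 0.64 (SE 0.13, adjusted p by limma = 0.000495, higher in both experiments), that is, 1.56-fold on the FPKM + 1 scale. The call was lost with read totals (0.19, adjusted p by limma = 0.255), upper quartile scaling (0.25, adjusted p by limma = 0.103) and a length and level trend removed (0.26, adjusted p by limma = 0.112). Ago1, the most abundant Argonaute mRNA here, was at 13.4 and 14.3 FPKM with Cpeb4 and at 7.85 and 9.997 FPKM with IgG. The groups did not overlap, but the IgG libraries differed from each other by more than the Cpeb4 libraries did. Its log2 fold change was 0.59 (SE 0.13, adjusted p by limma = 0.00102), at 0.70 in experiment 1 and 0.47 in experiment 2. Without the IgG library of experiment 1 it was 0.43 and the call was lost (adjusted p by limma = 0.102), as it was with read totals (0.12), upper quartile scaling (0.19), median centring (0.29) and the trend removed (0.07).

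Ago3 was the least abundant member in either precipitate. It was at 3.49 and 4.57 FPKM with Cpeb4 and at 1.89 and 2.04 FPKM with IgG. Here the Cpeb4 libraries were the more spread pair, and both lay above the IgG libraries. Its log2 fold change of 0.76 (SE 0.15, adjusted p by limma = 0.000442) is the highest of the 10 and lies at the 82.0 percentile of tested genes. Because 1 is added to each value, this scale understates a gene at such low levels. With a pseudocount of 0.1 the log2 fold change was 0.99 (adjusted p by limma = 0.000971), and in the authors' deposited table it was 1.02 (SE 0.18).

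Ago4 was at 6.36 and 6.38 FPKM with Cpeb4 and at 4.53 and 4.49 FPKM with IgG. Its replicates were nearly equal in each group, and the groups did not overlap. The log2 fold change was 0.42 (SE 0.13, adjusted p by limma = 0.0134). That call was lost without the IgG library of experiment 1 and without that of experiment 2, though the log2 fold change stayed at 0.42 and 0.41. Without the Cpeb4 library of experiment 1 it was 0.42, and without that of experiment 2 also 0.42. Each of these fits leaves 1 library for an antibody. Of the 5 scalings, Ago4 was called with the authors' only.

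Ago1, Ago3 and Ago4 are neighbours on chromosome 4 in GRCm38. Ago3 spans chr4:126326994-126431670, Ago1 chr4:126435012-126468707 and Ago4 chr4:126489487-126533586, with 3341 bases between Ago3 and Ago1 and 20779 bases between Ago1 and Ago4. Ago2 lies apart, at chr15:73101625-73184947. The 3 neighbours did not share a level: in IgG libraries Ago1 averaged 8.93 ± 1.52 FPKM, Ago4 4.51 ± 0.026 FPKM and Ago3 1.97 ± 0.10 FPKM (SD, n = 2). No annotated gene overlaps these 3, while a long noncoding RNA, Gm31725, lies within Ago2. Strand is not recorded by the cDNA kit, so any reads from that stretch cannot be assigned to either gene by strand. Whole spans were compared, here and below, and whether exons overlap was not checked.

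Within the summed FPKM of the Argonautes, the shares of Ago1 and Ago2 overlapped between precipitates and those of Ago3 and Ago4 did not. Ago1 made up 40.0% and 40.0% of the sum with Cpeb4 and 38.8% and 43.2% with IgG. Ago2 made up 30.6% and 29.3% with Cpeb4 and 29.4% and 28.6% with IgG. The share of Ago3 was 10.4% and 12.8% with Cpeb4, above 9.36% and 8.80% with IgG. Ago4 held 18.9% and 17.9% with Cpeb4, below 22.4% and 19.4% with IgG. These shares do not depend on how libraries are scaled, and no test was made of them.

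**Figure D1:**
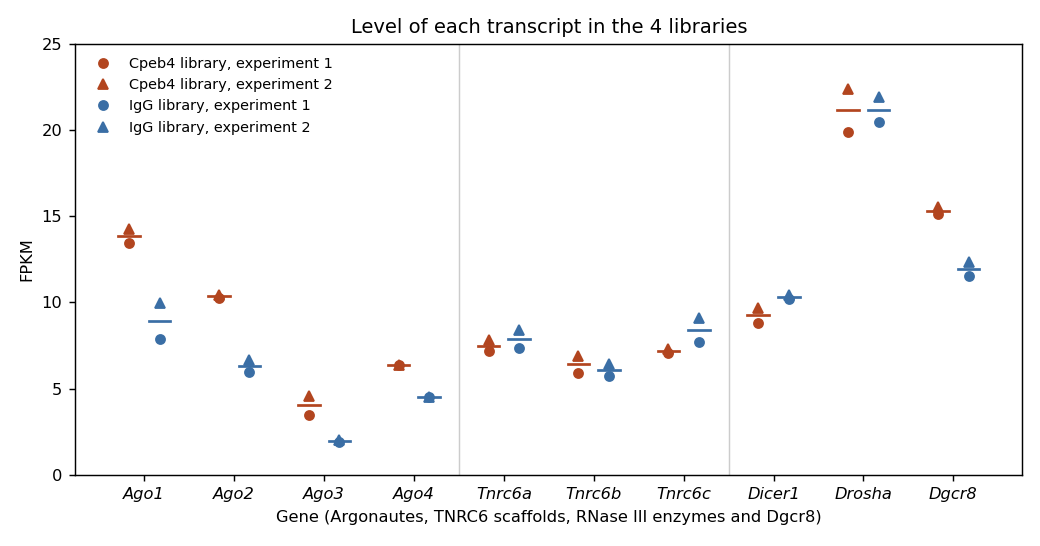
FPKM of the 10 transcripts (y axis, linear, from 0) in the Cpeb4 libraries (left of each pair) and the IgG libraries (right), with a circle for experiment 1, a triangle for experiment 2 and a bar for the mean of 2. The 4 Argonautes and Dgcr8 lie higher with Cpeb4 in both experiments with the authors' scaling (the signs of Ago4 and Dgcr8 turn with read totals), while the points of Tnrc6a, Tnrc6b and Drosha overlap between antibodies.

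None of the 3 TNRC6 scaffolds was called between precipitates with the authors' scaling, by limma or by limma-voom, and none had an unadjusted p under 0.05. Tnrc6a (chr7:123031101-123195296) was at 7.18 and 7.82 FPKM in the Cpeb4 libraries, against 7.38 and 8.39 FPKM in the IgG libraries. The groups overlapped, and the log2 fold change was -0.06 (95% interval -0.33 to 0.20, adjusted p by limma = 0.704). Tnrc6b (chr15:80711313-80941086) was at 5.93 and 6.88 FPKM with Cpeb4 and at 5.74 and 6.44 FPKM with IgG, again overlapping. Its log2 fold change was 0.06 (95% interval -0.21 to 0.33, adjusted p by limma = 0.719). Tnrc6c (chr11:117653703-117763439) was at 7.08 and 7.27 FPKM with Cpeb4, below 7.71 and 9.09 FPKM with IgG. Both Cpeb4 libraries were below both IgG libraries, as for 22.7% of tested genes, and the log2 fold change of -0.20 (95% interval -0.47 to 0.07) was not called (adjusted p by limma = 0.213). Each of the 3 intervals includes differences of either sign. With any of 4 further scalings Tnrc6c was lower and passed the threshold (-0.44 to -0.65). Tnrc6a was called lower with read totals (-0.51), upper quartile (-0.45) and median centring (-0.36), and Tnrc6b with read totals (-0.38) and upper quartile (-0.32).

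The 3 scaffold mRNAs were near each other in level. Tnrc6a held 35.6% and 35.6% of their summed FPKM with Cpeb4 and 35.4% and 35.1% with IgG. Tnrc6b held 29.4% and 31.3% with Cpeb4, above 27.6% and 26.9% with IgG, and Tnrc6c held 35.1% and 33.1% with Cpeb4, below 37.0% and 38.0% with IgG. A long noncoding RNA, Gm39084, lies within the span of Tnrc6a, so any reads from shared exons cannot be assigned without strand.

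Dicer1, the cytoplasmic nuclease (chr12:104687740-104751968), was at 8.79 and 9.70 FPKM in the Cpeb4 libraries, against 10.2 and 10.5 FPKM in the IgG libraries. Its groups did not overlap, with Cpeb4 the lower, but the log2 fold change was -0.14 (95% interval -0.41 to 0.12) and was not called (adjusted p by limma = 0.354). Dicer1 was called lower with read totals (-0.61), upper quartile (-0.54), median centring (-0.44) and trimmed mean (-0.39). Drosha (chr15:12824804-12935291), the most abundant of the 10, was at 19.9 and 22.4 FPKM with Cpeb4 and at 20.5 and 21.9 FPKM with IgG. These overlapped fully, and the log2 fold change was -0.004 (95% interval -0.26 to 0.25, adjusted p by limma = 0.981). It was called lower with read totals (-0.49), upper quartile (-0.42) and median centring (-0.30). Dgcr8 (chr16:18253948-18289251), its partner in Microprocessor, was at 15.1 and 15.6 FPKM with Cpeb4 and at 11.6 and 12.3 FPKM with IgG. Both Cpeb4 libraries lay above both IgG libraries, with a log2 fold change of 0.34 (SE 0.12, adjusted p by limma = 0.0303).

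Dgcr8 had the largest adjusted p of the 5 calls. The call was lost without the IgG library of experiment 1 (log2 fold change 0.29) and without that of experiment 2 (0.38). Without the Cpeb4 library of experiment 1 the log2 fold change was 0.36, and without that of experiment 2 it was 0.32. Of the 5 scalings Dgcr8 was called with the authors' only. In the authors' deposited table Dgcr8 had a log2 fold change of 0.35 and an adjusted p of 0.102. In the authors' deposited table the 4 members under 0.05 were the 4 Argonautes, all higher, beside 21.7% of the 22709 genes that have an adjusted p there. The span of Dgcr8 overlaps that of Trmt2a by 825 bases, and any reads there cannot be assigned without strand. Trmt2a was at 18.2 and 14.3 FPKM with Cpeb4 and at 19.4 and 19.2 FPKM with IgG, in the other direction from Dgcr8, and was not called (log2 fold change -0.25, adjusted p by limma = 0.119).

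**Figure D2:**
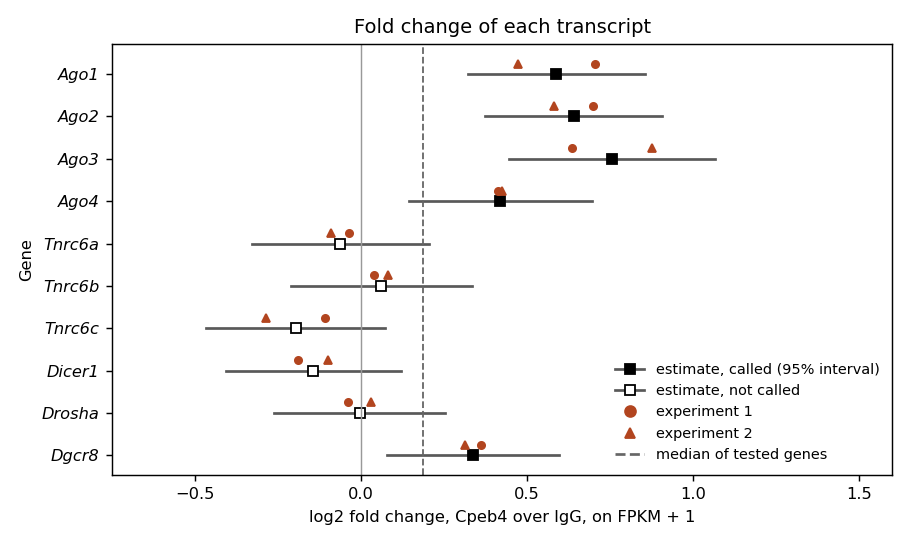
Log2 fold change of each transcript, Cpeb4 over IgG, on FPKM + 1 (x axis), with 95% limma intervals, filled squares for called genes, and the separate log2 ratios of experiment 1 (circle) and experiment 2 (triangle). The Argonautes lie between 0.42 and 0.76, right of the median of all tested genes at 0.19 (with read totals Ago4 is at -0.01), and the TNRC6 scaffolds, Dicer1 and Drosha lie left of it.

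Within each precipitate the levels could be ordered. With Cpeb4 the order of mean FPKM was Drosha, Dgcr8, Ago1, Ago2, Dicer1, Tnrc6a, Tnrc6c, Tnrc6b, Ago4 and Ago3. The replicates of neighbours overlapped for Tnrc6a with Tnrc6c and for Tnrc6b with Ago4. With IgG it was Drosha, Dgcr8, Dicer1, Ago1, Tnrc6c, Tnrc6a, Ago2, Tnrc6b, Ago4 and Ago3, with overlap between Ago1 and Tnrc6c, between Tnrc6c and Tnrc6a and between Ago2 and Tnrc6b. Ago1 and Ago2 thus stood above Dicer1 with Cpeb4 and below it with IgG.

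Ratios between members of the same library do not depend on how libraries are scaled, and these separated the precipitates. The summed FPKM of the 4 Argonautes was 33.6 and 35.6 in the Cpeb4 libraries and 20.2 and 23.2 in the IgG libraries. The summed FPKM of the 3 TNRC6 scaffolds was 20.2 and 22.0 with Cpeb4 and 20.8 and 23.9 with IgG. The ratio of these sums was therefore 1.66 and 1.62 with Cpeb4 and 0.971 and 0.968 with IgG. Ago2 over Dicer1 was 1.17 and 1.07 with Cpeb4, against 0.585 and 0.634 with IgG, and Dgcr8 over Drosha was 0.761 and 0.694 with Cpeb4, against 0.565 and 0.563 with IgG. Each ratio was higher in both Cpeb4 libraries than in either IgG library. The pairs were chosen after their values were seen, so no test is given. No share of other gene pairs that separate in this way is given either. Separation is common for single genes, with both Cpeb4 libraries above both IgG libraries for 53.2% of tested genes and below for 22.7%.

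**Figure D3:**
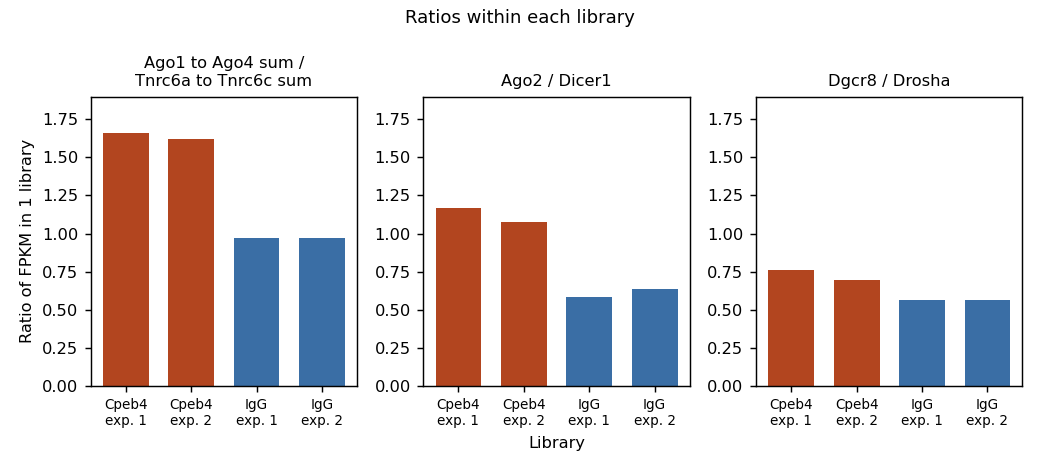
Ratio of FPKM within each library (y axis, linear, from 0) for the sum of the 4 Argonautes over the sum of the 3 TNRC6 scaffolds, for Ago2 over Dicer1 and for Dgcr8 over Drosha, with the Cpeb4 libraries left and the IgG libraries right. The Argonaute to TNRC6 ratio is 1.66 and 1.62 in the Cpeb4 libraries and 0.971 and 0.968 in the IgG libraries.

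The direction of a single member against IgG did depend on scaling. With libraries scaled to their read totals, the median log2 fold change of all tested genes was -0.23 in place of 0.19, and 17.6% of tested genes were higher and 41.5% lower. Under this scaling, 1 member was higher (Ago3) and 5 were lower (Tnrc6a, Tnrc6b, Tnrc6c, Dicer1 and Drosha). Trimmed mean of M-values, with a median of -0.04 and 26.5% of genes higher and 26.0% lower, left Ago1, Ago2 and Ago3 higher and Dicer1 and Tnrc6c lower. Upper quartile scaling called 1 member higher (20.3% of tested genes) and 5 lower (37.3%), and median centring 2 higher (22.9%) and 4 lower (30.8%). Of the 10 members, Ago3 alone was called higher under all 5 scalings, at log2 fold changes of 0.38 to 0.76, as were 17.4% of tested genes. Ago1 was at 0.12 to 0.59 and called under 2 of the 5, and Ago2 at 0.19 to 0.64 and called under 3. Ago4 ranged from -0.01 to 0.42 and Dgcr8 from -0.14 to 0.34, so their signs turned.

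A scaling shifts all genes nearly alike, so distances from the median of all tested genes change little between scalings by construction, and they are given as a description. Ago3 lay 0.57 above it with the authors' scaling and 0.61 above it with read totals, Ago2 0.45 and 0.42, Ago1 0.40 and 0.35, Ago4 0.23 and 0.22, and Dgcr8 0.15 and 0.095. Tnrc6c lay at -0.38 and -0.42, Dicer1 at -0.33 and -0.37, Tnrc6a at -0.25 and -0.28, Drosha at -0.19 and -0.26 and Tnrc6b at -0.13 and -0.15. Among all tested genes, the Argonautes stood at the 66.3 to 82.0 percentiles and the TNRC6 scaffolds at the 19.9 to 40.0 percentiles of fold change. With a trend of fold change on gene length and mean level removed, Ago3 kept its call at 0.65 (adjusted p by limma = 0.00177), while Ago2 at 0.26, Ago1 at 0.07, Ago4 at 0.05 and Dgcr8 at -0.14 lost theirs. Tnrc6a, Tnrc6c, Dicer1 and Drosha were then called lower, at -0.51, -0.60, -0.62 and -0.56, and 23.9% of genes were higher and 25.4% lower. With no filter on low values, 3 members were higher, beside 8.35% of genes, and 0 lower, beside 1.87%.

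**Figure D4:**
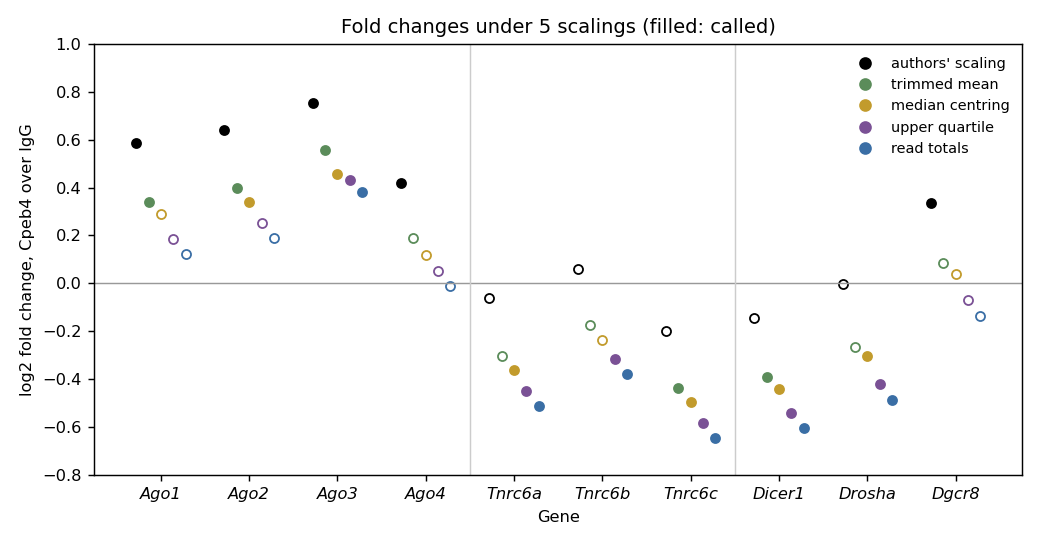
Log2 fold change, Cpeb4 over IgG (y axis), of each transcript with libraries scaled 5 ways, filled where the gene was called by limma. All 10 transcripts are lower with read totals than with the authors' scaling, as a scaling shifts genes nearly alike, and Ago3 stays called at 0.38 to 0.76.

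The member with the largest change, Ago3, was matched to other tested genes by its centred log2(FPKM + 1) values over the 4 libraries. Zfp398, Mapk6 and Dgke were nearest, at Euclidean distances of 0.025, 0.026 and 0.031 and with log2 fold changes of 0.76, 0.74 and 0.77. With 4 libraries and 15745 genes such near matches are a description only.

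The other genes of the pathway were placed in 9 lists by role, with 69 of 73 listed symbols found and 61 genes tested. Of these, 35 were higher (57.4%), 7 lower and 19 not called, beside 38.8% and 11.6% of all tested genes, and the median log2 fold change was 0.47. Under all 5 scalings, 15 of the 61 were higher and 7 lower, beside 17.4% and 11.6% of all tested genes. The 7 lower calls were all kept, as were those of all 1822 genes called lower with the authors' scaling. The 7 include Mirg, which passed the filter on low values only through the IgG libraries. Each of the other 4 scalings gave a lower median over all tested genes than the authors' scaling. Leaving out the IgG library of experiment 2 gave fewer calls in each direction, for these genes as for all tested genes.

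Among the Microprocessor cofactors, 8 of 12 were higher, 1 was lower and 3 were not called with the authors' scaling. The shares of all tested genes were 38.8% higher and 11.6% lower. Under all 5 scalings, 3 of the cofactors were higher and 1 lower, beside 17.4% and 11.6% of all tested genes. The splicing factor Srsf3, which also marks primary microRNAs for cutting, had a log2 fold change of 1.33 (SE 0.13, adjusted p by limma = 7.11e-07). The helicase Ddx17 was higher at 1.07 and Erh, a small protein that binds Dgcr8, at 0.92, and all 3 were higher under all 5 scalings. Srrt (Ars2), which links the nuclear cap-binding complex to primary microRNAs, was lower at -0.40 (adjusted p by limma = 0.0133). Of the 2 export genes, Ran, the GTPase that powers export, was higher at 0.76 (adjusted p by limma = 0.000112), a call lost with read totals, while the precursor carrier Xpo5 was at 13.5 and 13.2 FPKM with Cpeb4 and at 11.3 and 11.8 FPKM with IgG and was not called. The spans of Ddx17 and Erh each overlap that of a neighbouring gene, and any reads from the shared bases cannot be separated without strand. Processed copies of Ran and Erh elsewhere in the genome may share their reads.

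The Dicer partners went in opposite directions. Tarbp2 (TRBP), a double-stranded RNA-binding partner of Dicer, was at 6.69 and 6.44 FPKM in the Cpeb4 libraries, against 9.998 and 10.7 FPKM in the IgG libraries. Its log2 fold change was -0.58 (SE 0.13, adjusted p by limma = 0.00107). It was lower under all 5 scalings, as was every gene called lower with the authors' scaling. Prkra (PACT), the related partner, was at 16.5 and 17.2 FPKM with Cpeb4 and at 11.3 and 11.4 FPKM with IgG, and was higher at 0.53 (SE 0.12, adjusted p by limma = 0.00171) with the authors' scaling only. Prkra over Tarbp2 was 2.46 and 2.67 within the Cpeb4 libraries and 1.13 and 1.06 within the IgG libraries, a ratio chosen after its values were seen. The span of Tarbp2 overlaps Map3k12 by 928 bases. The RNA-editing enzyme Adarb1 was higher at 0.40 (adjusted p by limma = 0.0147), with a sign that turned with read totals, and Adar was not called.

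Of 4 tested genes of precursor uridylation and let-7 control, 3 were higher, beside 38.8% of all tested genes. The other, the exonuclease Dis3l2, was not called. The terminal uridylyl transferases Zcchc11 (Tut4) and Zcchc6 (Tut7) had log2 fold changes of 0.82 and 0.65, and Lin28b, which blocks let-7 maturation, 0.47 (adjusted p by limma = 0.024), with Zcchc11 the 1 called under all 5 scalings. Lin28a and Trim71 were under the filter, at no more than 0.115 FPKM in any library. Of 8 chaperones that help load Argonaute, 3 were higher, near the share of 38.8% of all tested genes, and 5 were not called. Those higher were Ptges3 (p23) at 0.98, Dnaja2 at 0.84 and Hsp90aa1 at 0.49, the last with a sign that turned with read totals.

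Argonaute cofactors and turnover factors gave 9 of 14 higher, 1 lower and 4 not called with the authors' scaling. The shares of all tested genes were 38.8% higher and 11.6% lower. Under all 5 scalings, 4 of the 14 were higher and 1 lower, beside 17.4% and 11.6% of all tested genes. The exonuclease Eri1 had a log2 fold change of 1.31, the importin Ipo8, which carries Argonaute, 1.18, and Fmr1, the fragile X protein, 1.27, with adjusted p by limma of 7.05e-07 to 2.39e-06, and each was higher under all 5 scalings. Zswim8, the ubiquitin ligase receptor of target-directed microRNA decay, was lower at -0.45 (adjusted p by limma = 0.012). Among the genes that TNRC6 recruits or acts through, 7 of 11 were higher, 1 was lower and 3 were not called with the authors' scaling. Only 3 of these 11 were higher under all 5 scalings, and 1 lower. The deadenylase Cnot7 led at 2.19, the helicase Ddx6 followed at 1.82 and Cnot2 at 0.83, and the lower gene was Pan2 at -0.60. Cnot7 shares 4106 bases of its span with Vps37a. The TNRC6 scaffold mRNAs themselves had log2 fold changes of -0.20 to 0.06.

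The germline PIWI genes Piwil1, Piwil2 and Piwil4, relatives of Argonaute, stayed at no more than 0.315 FPKM in any library and were not tested. Of 6 tested microRNA host transcripts, 2 were higher, 3 lower and 1 not called. All 5 calls held under all 5 scalings, where 17.4% of all tested genes were higher and 11.6% lower. Every gene called lower with the authors' scaling kept that call, so this is not particular to the 3 lower ones. Mir22hg, the host of miR-22, was at 12.4 and 15.0 FPKM in the Cpeb4 libraries, against 5.52 and 5.47 FPKM in the IgG libraries, a log2 fold change of 1.18 (SE 0.13, adjusted p by limma = 1.72e-06). Mir124-2hg was at 14.2 and 18.3 FPKM with Cpeb4 and at 8.04 and 7.47 FPKM with IgG (log2 0.97, adjusted p by limma = 1.91e-05). Mir124a-1hg was at 2.46 and 2.80 FPKM with Cpeb4 and at 3.99 and 4.78 FPKM with IgG, lower at -0.57 (adjusted p by limma = 0.00296). Mir99ahg and Mirg were also lower, at -0.54 and -0.60. Mirg was at 0.912 and 0.883 FPKM with Cpeb4 and at 1.82 and 1.94 FPKM with IgG. It thus reached the filter of 1 FPKM only in the IgG libraries, where it is high, so its direction is no support. Mir9-3hg, the host of miR-9, was at 32.8 and 31.6 FPKM with Cpeb4 and at 30.7 and 28.6 FPKM with IgG and was not called (log2 0.12, adjusted p by limma = 0.451). These libraries were primed on poly(A) tails, so the values describe polyadenylated host transcripts and not the hairpins cut from them.

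**Figure D5:**
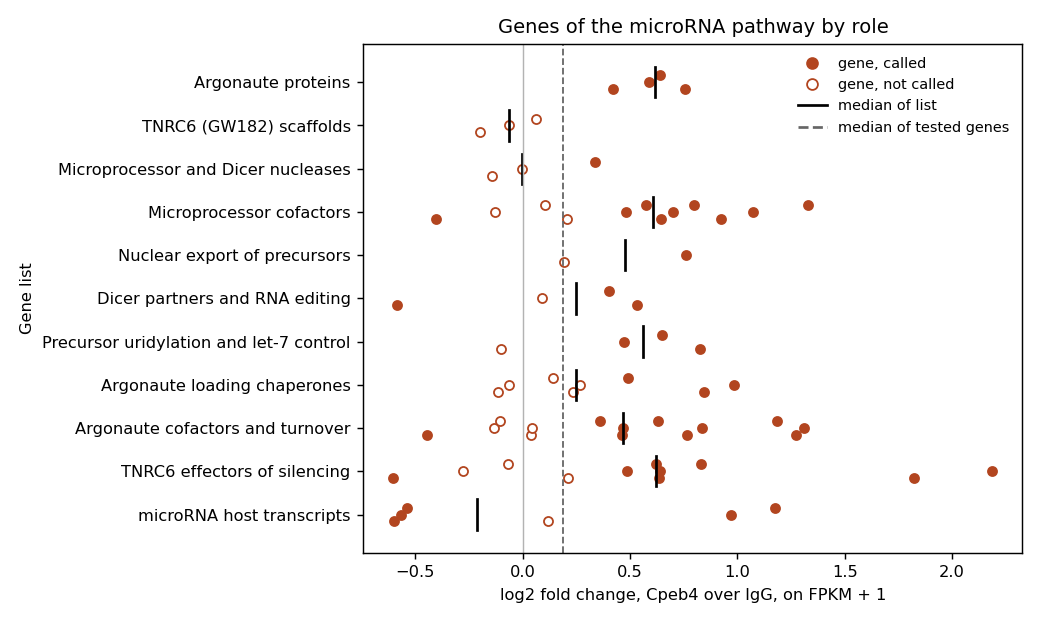
Log2 fold change, Cpeb4 over IgG, on FPKM + 1 (x axis), of each tested gene of the microRNA pathway in 11 lists by role, filled where called by limma, with a bar at each list's median and a dashed line at the median of all tested genes, 0.19. With the authors' scaling, shown here, Argonautes have a median of 0.61 and TNRC6 scaffolds of -0.06, and the host transcripts fall on both sides. With read totals the Argonautes are at -0.01 to 0.38 and the scaffolds at -0.65 to -0.38.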

How the data were processed

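RNA immunoprecipitates were processed per the labels with a MAGNA RIP kit, the SMART-Seq v4 kit and Nextera XT; the submitters' processing notes name STAR 2.6.0c, HTSeq 0.6.1p2, DESeq2 1.26.0 and build mm10, with no settings. Per the file headers, the deposited table holds FPKM per library. From the authors' comparison it also holds, per the file headers, a mean level (a signal), a log2 fold change, its standard error and statistic (scores), a p-value and an adjusted p-value. The table held 0 columns of other samples. Reads per gene were recovered from FPKM steps and the authors' mean level (100% whole, tolerance 0.01 read), and used for depth, scalings and limma-voom.

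The 15745 genes reaching 1 FPKM in 2 or more libraries were fitted with limma 3.58.1 in R 4.3.3 on log2(FPKM + 1), using a trended prior, antibody as effect and experiment as block. Tests were two-sided, and genes were called at a Benjamini-Hochberg adjusted p under 0.05. The block left 1 residual degree of freedom and the prior added 14.6. The block follows the experiment numbers in the titles and the batch named in the table's title; deviations of same-numbered libraries correlated at 0.002. The chi-square per degree of freedom between replicates was 27.6 for Cpeb4 and 6.25 for IgG, so no library was given 2 times. limma was tested on simulated data.

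Members, lists and tests were chosen with earlier results of these data known. Named were all members, Cpeb4, up to 3 called genes per list and direction by smallest adjusted p, and the 3 nearest profiles to the member with the largest change; other genes named were chosen after their values were seen. Sequences and coordinates are from RefSeq, GRCm38.p6, in which all 10 members were matched by symbol. Scaling, pseudocount, filter, limma-voom, block, trend removal (loess, span 0.5) and leaving out each library were varied.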

Additional observations from a re-analysis of the deposited data

How the results depend on the processing

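Over 14 alternatives, 87 single values of the 10 transcripts kept direction and side of the threshold. With the sign kept, 20 lost and 18 gained a call. A further 14 changed sign, and some of these also lost or gained a call. The cause of these changes was not tested. Members called higher numbered 5, and 1, 1, 3, 2, 3 and 1 with read totals, upper quartile, trimmed mean, median centring, no filter on low values and the length and level trend removed. Members called lower numbered 0, and 5, 5, 2, 4 and 4 with read totals, upper quartile, trimmed mean, median centring and trend removed. Without 1 library they numbered 2 to 5 higher and 0 lower, with 2 without the IgG library of experiment 1 and 3 without that of experiment 2.

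Other pathway genes called higher numbered 35 and those called lower 7. With read totals, upper quartile, trimmed mean, median centring, no filter and trend removed, 15, 18, 26, 24, 25 and 18 were higher. In the same order, 21, 18, 14, 15, 2 and 18 were lower. Without 1 library they numbered 25 to 37 and 2 to 8. Of the 15745 tested genes, 6106 were higher. They numbered 2768, 3197, 4176 and 3607 with read totals, upper quartile, trimmed mean and median centring. With no filter, FPKM of at least 5 and trend removed they numbered 3915, 5181 and 3741. In these last fits 46911, 10100 and 15633 genes were tested, so their counts, higher or lower, are not out of the same genes. There were 1822 lower, and 6534, 5879, 4093, 4857, 875, 937 and 3971 with read totals, upper quartile, trimmed mean, median centring, no filter, FPKM of at least 5 and trend removed. Without 1 library they numbered 3977 to 6534 and 867 to 2497, with 4166 and 942 without the IgG library of experiment 1 and 3977 and 867 without that of experiment 2; these fits have no block.

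The sign of Ago4 turned with read totals (-0.0092). That of Dgcr8 turned with read totals (-0.14), upper quartile (-0.071) and trend removed (-0.14). Tnrc6b was at -0.38, -0.32, -0.17, -0.24 and -0.19 with read totals, upper quartile, trimmed mean, median centring and trend removed. Leaving out 1 library gave -0.032 to 0.15 for Tnrc6b, -0.14 to 0.019 for Tnrc6a and -0.087 to 0.078 for Drosha. Without the replicate block the members called were the same 5 higher and 0 lower, with 6007 genes higher and 1714 lower. Ago3 was not tested at FPKM of at least 5. Each value rests on 2 libraries per antibody and 797 to 4326 reads per member and library, which without molecular identifiers are not independent molecules.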
